A study of Mus musculus with 6 samples.

Results

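Complement C3 and 8 genes that act with it were followed across tumor stages in lung mesenchymal stromal cells (LMSCs), the cultured stromal cells of the mouse lung. The 9 genes were taken by name from the 34745 genes of the deposited table, and all 9 were listed. They comprise C3 itself, C3ar1 (the receptor for the C3a fragment), Cfb and Cfd (the proteases of the alternative pathway), C2 and C4b (the classical and lectin counterparts of Cfb and C3), and Cd55, Cr1l and Cd59a (regulators on the cell surface). RNA-seq libraries came from LMSCs of MMTV-PyMT mice (FVB background), in which the mouse mammary tumor virus promoter drives the polyoma middle T antigen in the mammary epithelium and tumors spread to the lung. There were 2 libraries of A-LMSCs (adenoma stage, 6 to 7 weeks of age in the labels), 2 of PM-LMSCs (pre-metastatic, 9 to 10 weeks) and 2 of M-LMSCs (metastatic, 13 to 14 weeks); the ages given in the methods of the study are slightly older for the first stages. All groups carried the transgene, and no library of wild-type LMSCs was analysed here. The cells were adherent lung cells depleted of CD45+ cells on magnetic beads and grown for 3 passages in medium with serum, so the values describe cultures and not the lung. Stage and age of the mouse cannot be told apart.

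Complement is a cascade of plasma proteins in which each cleaved protease activates the next. C3 is the point where its routes meet: a convertase built from C4b and C2, or from C3b and factor B after cleavage by factor D, splits C3 into C3a, a small fragment that attracts and activates myeloid cells, and C3b, which binds covalently to nearby surfaces. Host cells limit this on their own surface, with Cd55 and Cr1l (also called Crry) acting on the convertases and Cd59a on the membrane attack complex. The liver makes most of the C3 in blood, but fibroblasts, epithelial cells, mesothelial cells and macrophages make it locally.

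Values are in FPKM, fragments per kilobase of gene, scaled to the fragments sequenced, so levels of different genes can roughly be set side by side. The libraries held between 14800000 and 20800000 fragments (rounded), estimated from the spacing of low values in genes with a single annotated transcript, of which 92.8% to 93.3% fell within 0.02 of a whole fragment. The 10279 genes whose average over all libraries reached 1 FPKM were tested with limma on log2(FPKM + 1), and a gene is called where its p is under 0.05 after Benjamini-Hochberg adjustment across these genes. Of the members 7 were tested; Cfb and Cfd lay below the filter. C3ar1 passed it only through M-LMSCs. Nothing in the labels says whether the libraries of a stage came from separate mice, so p-values measure the spread between these libraries. The paper counts its RNA-seq replicates as mice. It places a further replicate per stage in a second series, which is not among the libraries used here. Stromal markers were high in the cultures, with Col1a1 at 761 to 1472 FPKM and Pdgfrb at 61.1 to 89.1 FPKM. Ptprc, which encodes CD45, did not exceed 0.0987 FPKM. The list of 14 macrophage and monocyte markers that includes Ptprc nevertheless summed to 80.5 to 421 FPKM, as described below. Pecam1, an endothelial marker, did not exceed 0.0337 FPKM. The sum of 10 endothelial markers was 20.1 to 28.3 FPKM, most of it from Eng at 17.9 to 25.8 FPKM, which is also on the list of stromal markers.

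The members with the largest differences between M- and A-LMSCs were C3 and C3ar1, and the 250 bases before the RefSeq start of each are shown because both were higher in M- than in PM-LMSCs without overlap. Capitals mark matches to the motifs searched on both strands, which were TTCNNNGAA and TTCNNNNGAA (STAT), TTGCNNAA (C/EBP), TGANTCA (AP-1), GAAANNGAAA (IRF) and GGGNNTTTCC (NF-kB). The C3 promoter lies on the minus strand at chr17:57228137-57228386 and that of C3ar1 on the minus strand at chr6:122856158-122856407, both in GRCm38.

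C3: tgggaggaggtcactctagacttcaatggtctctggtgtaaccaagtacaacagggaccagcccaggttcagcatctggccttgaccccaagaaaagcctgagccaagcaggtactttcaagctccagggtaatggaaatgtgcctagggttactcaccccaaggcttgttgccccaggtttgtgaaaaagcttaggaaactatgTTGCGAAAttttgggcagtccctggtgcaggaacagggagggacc

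C3ar1: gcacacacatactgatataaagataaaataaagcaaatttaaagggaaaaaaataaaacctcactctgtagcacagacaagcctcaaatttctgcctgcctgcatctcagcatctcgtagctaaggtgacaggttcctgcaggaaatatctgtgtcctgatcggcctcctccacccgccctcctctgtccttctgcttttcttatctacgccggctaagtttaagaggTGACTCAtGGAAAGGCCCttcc

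In the C3 sequence the capitals are a C/EBP match from 45 to 38 bases before the start. In C3ar1 they are an AP-1 match from 22 to 16 bases before the start and, beside it, an NF-kB match on the opposite strand from 14 to 5 bases before it. Promoter entries were found for 6 members, and the only other match was an IRF match in Cd59a, from 187 to 178 bases before the start. The letters of either STAT form were found in none of the 6 windows. Of 32851 mouse promoter windows of the same length, 9.56% held the C/EBP letters, 6.75% those of AP-1, 1.41% those of NF-kB, 2.98% those of IRF, and 7.02% and 5.85% the STAT forms with the shorter and the longer spacing.

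At the metastatic stage the complement genes were for the most part at their highest. In 7 of the 9 members the M-LMSC values were all higher than the A-LMSC values, which held for 27.1% of all genes tested, and in 0 of the 9 did both lie below (24.4% of tested genes). Between PM- and A-LMSCs the libraries of 5 members were higher without overlap (C3, C2, Cd55, Cr1l and Cd59a; 19.6% of tested genes) and those of 1, Cfb, were lower (19.7%). Between M- and PM-LMSCs 4 were higher (C3, C3ar1, Cfb and Cr1l; 17.8%) and 0 lower (16.7%). No member was called by limma in any of the 3 comparisons, in which 0.0389% (PM against A), 0.0681% (M against A) and 0.0292% (M against PM) of the tested genes were called; at an unadjusted p under 0.05 the members, all higher, were C3, Cd55 and Cd59a in the first (3.92% of tested genes were higher at that threshold), these and C3ar1 in the second (7.68%), and C3 and C3ar1 in the third (4.48%). Same-numbered libraries deviated together, and with the replicate number as a block the shares of genes called were 0.292%, 3.92% and 0.418%. The block added a call for C3 in M- against A-LMSCs and for C3ar1, which reached the filter only through M-LMSCs, in M-LMSCs against both other stages, and for no other member. In bulk cultures, fewer cells of a type and less RNA per cell cannot be told apart.

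**Figure D1:**
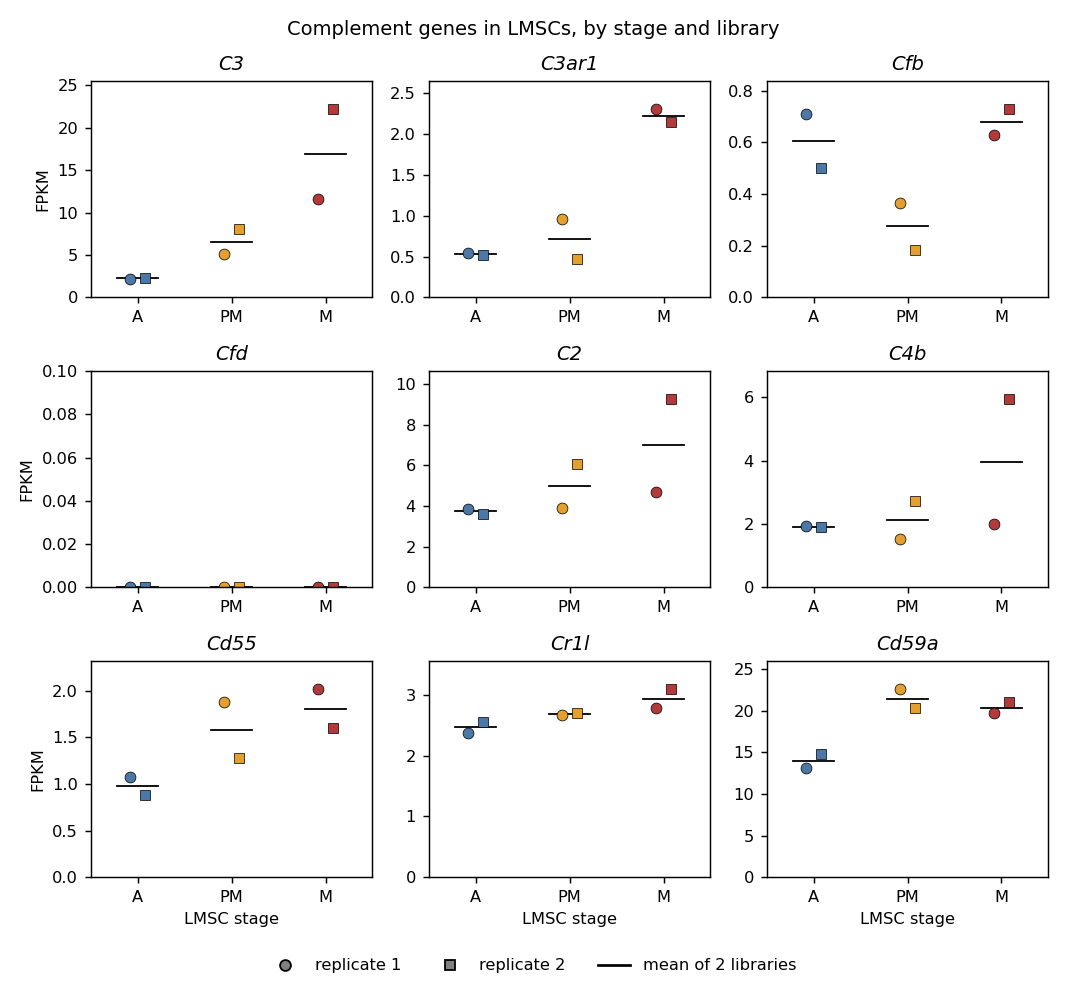
FPKM (y axis, each panel on its own scale from 0) of the 9 complement genes in A-, PM- and M-LMSCs (x axis). Circles are replicate 1, squares replicate 2 and lines the mean of the 2 libraries. C3 climbs from 2.19 to 22.2 FPKM, C3ar1 is set apart in both M-LMSC libraries, C2 and C4b are highest in replicate 2 of M-LMSCs, Cfb is lowest in PM-LMSCs and Cfd is listed at 0.

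C3 (ENSMUSG00000024164, chromosome 17, 57203970 to 57228136, minus strand) showed the widest range of the members. Its level in replicates 1 and 2 was 2.19 and 2.30 FPKM at the adenoma stage, 5.11 and 8.06 FPKM at the pre-metastatic stage and 11.6 and 22.2 FPKM at the metastatic stage. No library of a later stage overlapped an earlier one, and the libraries of M-LMSCs differed from each other by a factor of 1.91. The stage means of 2.25 ± 0.0822, 6.58 ± 2.08 and 16.9 ± 7.45 FPKM (SD, n = 2 each) correspond to a 2.57-fold step from PM- to M-LMSCs after the 2.93-fold step from A- to PM-LMSCs. On the log2 scale M- exceeded A-LMSCs by 2.40 (standard error 0.31, adjusted p = 0.0720 from limma), which ranked 19th by p among the tested genes. With the replicate block the same difference was called (adjusted p = 0.00940 from limma). Without M-LMSC replicate 1 it was 2.84 (limma adjusted p = 0.00785) and without M-LMSC replicate 2 it was 1.96 (limma adjusted p = 0.0405), but in these fits the lone M-LMSC library is assumed to vary like the other stages, so the gap between the M-LMSC libraries does not enter the error. The other 9 alternatives did not call it: the limma adjusted p was 0.268 and 0.395 without A-LMSC replicates 1 and 2, 0.138 and 0.140 without PM-LMSC replicates 1 and 2, 0.166 with no filter, 0.140 with only the stages compared, and 0.0678 to 0.0720 with another pseudocount or scaling. The steps from A- to PM-LMSCs (1.20, limma adjusted p = 0.452) and from PM- to M-LMSCs (1.20, limma adjusted p = 0.349) did not pass, and with the block they were at 0.0617 and 0.0615.

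Relative to its partners, C3 stood at a different place in each stage. At the adenoma stage the C3 level was below that of C2 and of Cr1l in both libraries, at 0.564 and 0.637 of C2 and 0.919 and 0.902 of Cr1l. At the later stages it was above both genes in all 4 libraries, by 1.31 to 2.47 times for C2 and 1.91 to 7.17 times for Cr1l. C3 exceeded Cd55 in all 6 libraries, with a ratio that went from 2.04 and 2.61 in A-LMSCs to 5.76 and 13.9 in M-LMSCs. Against Cd59a, the most abundant of the regulators, it was lower in 5 libraries and about level in the 1 remaining, M-LMSC replicate 2, at a ratio of 1.05. These ratios compare levels of RNA per length and were not tested. The annotation behind the lengths is not given in the sources used here, so the small gap to Cr1l in A-LMSCs may depend on it.

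The tested gene whose profile was most like that of C3 was Fam180a, a gene for a little-characterized secreted protein. Over the 6 libraries log2(FPKM + 1) of Fam180a and C3, each centered on its mean, differed by a root mean square of 0.0979. Fam180a stood at 2.24 and 2.13 FPKM at the adenoma, 4.59 and 8.00 FPKM at the pre-metastatic and 9.71 and 18.9 FPKM at the metastatic stage, so the ratio of C3 to Fam180a stayed between 0.976 and 1.20 in all libraries. The next were Cxadr (0.429), an adhesion protein of tight junctions, Clu (0.429), the secreted chaperone and complement inhibitor clusterin, Trf (0.445), the iron carrier transferrin, and Igfbp3 (0.451), which binds insulin-like growth factors. Of the members the nearest were C3ar1 (0.694) and C2 (0.698), at ranks 78 and 82 among the other tested genes.

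C3ar1 (ENSMUSG00000040552, chromosome 6, 122847138 to 122856161, minus strand) encodes the G protein-coupled receptor for C3a, found mainly on myeloid cells. It was measured at 0.546 and 0.518 FPKM at the adenoma, 0.959 and 0.468 FPKM at the pre-metastatic and 2.30 and 2.14 FPKM at the metastatic stage. Both M-LMSC libraries were above all others, while the PM-LMSC libraries lay on either side of the A-LMSC ones. C3ar1 has a single annotated transcript, and its values correspond to 49 and 39, 61 and 32, and 164 and 153 whole fragments in the same order. The mean in M-LMSCs was 4.18 times that in A-LMSCs and 3.12 times that in PM-LMSCs, which on the log2 scale of FPKM + 1 came to 1.07 (standard error 0.15, adjusted p = 0.0852 from limma) and 0.93 (standard error 0.15, adjusted p = 0.192 from limma). With the replicate block the limma adjusted p was 0.0171 and 0.0483. C3ar1 entered the test through the M-LMSC libraries, where it is high, so these values are a description of it; with no filter, and no block, they were 0.184 and 0.286 (limma adjusted p). A pseudocount of 0.1 in place of 1 gave log2 differences of 1.88 and 1.58 (limma adjusted p = 0.103 and 0.259). Between PM- and A-LMSCs the difference was 0.15 (limma adjusted p = 0.896), and it was -0.061 without PM-LMSC replicate 1.

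C3ar1 moved with macrophage genes. The summed level of 14 macrophage and monocyte markers was 139 and 130 FPKM at the adenoma, 176 and 80.5 FPKM at the pre-metastatic and 421 and 306 FPKM at the metastatic stage, and most of it was Lyz2 (lysozyme), named here after its values were seen, at 115 and 106, 147 and 60.6, and 362 and 249.7 FPKM. The sum was higher in replicate 1 at each stage, as C3ar1 was, but single markers varied: replicate 1 was higher for 8 of the 14 in A-LMSCs, 13 in PM-LMSCs and 10 in M-LMSCs, and at all 3 stages for 7. In 13 of the 14 markers, and in 7 of the 7 tested, the M-LMSC values were all higher than the A-LMSC values (27.1% of all tested genes). Of the 14 markers, 0 were listed at 0 throughout. Adgre1, which encodes F4/80, had 0.252 and 0.506 FPKM at the adenoma and 2.09 and 1.52 FPKM at the metastatic stage. Of the 7 markers tested, 0 were called between M- and A-LMSCs (0.0681% of all tested genes). At an unadjusted p under 0.05, 7 were higher (7.68%), and with the block 6 were called higher (2.28%). None of 14 mast cell and granulocyte markers reached the filter, and their sum was between 0.774 and 1.10 FPKM in all libraries. The part that macrophage RNA has in the C3ar1 values was not tested.

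The order of libraries within a stage was another for C3. The C3 level was higher in replicate 2 at every stage, as was the sum of 14 mesothelial markers, which stood at 238 and 329 FPKM at the adenoma, 433 and 585 FPKM at the pre-metastatic and 305 and 668 FPKM at the metastatic stage. Both libraries were above both A-LMSC libraries in 11 of these markers in PM-LMSCs (19.6% of all tested genes) and in 10 in M-LMSCs (27.1%). Of the 13 markers tested, 10 and 9 were above, and 1 was below at each stage (19.7% and 24.4%). The mesothelial sum overlapped between M- and PM-LMSCs, and in M-LMSC replicate 1 it was below that of A-LMSC replicate 2, whereas the C3 level there was 11.6 FPKM. Msln was at 8.87 and 12.7, 33.8 and 47.7, and 12.6 and 48.2 FPKM in the 3 stages. With limma 1 of the 13 mesothelial markers tested was called between M- and A-LMSCs, as lower (0.0681% of all tested genes were called). This was Krt19 (log2 difference -1.53, limma adjusted p = 0.0395), named here after its values were seen. Krt19 was at 13.8 and 17.3, 8.09 and 9.28, and 4.92 and 4.49 FPKM in the 3 stages. With the block 8 of the 13 were called higher and 1, again Krt19, lower, beside 234 and 169 of all 10279 genes tested. Epithelial markers were low. Their sum over 14 genes was 1.43 and 2.80, 2.79 and 4.92, and 4.30 and 8.52 FPKM in A-, PM- and M-LMSCs, higher in replicate 2 at every stage. Single markers varied: replicate 2 was higher for 8 of the 14 in A-LMSCs, 4 in PM-LMSCs and 11 in M-LMSCs, and at all 3 stages for 2. In PM-LMSCs replicate 1 was higher for 9. Krt7, named here after its values were seen, made up 1.57 and 3.85 FPKM of the PM-LMSC sums. In M-LMSCs 7 of the 14 epithelial markers were above both A-LMSC libraries and 0 below (27.1% and 24.4% of all tested genes), but only 1 of the 14 reached the filter. Epcam was listed at 0 in A- and PM-LMSCs and stood at 0.326 and 0.473 FPKM in M-LMSCs. The part of mesothelial or epithelial RNA in the C3 values was not tested.

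**Figure D2:**
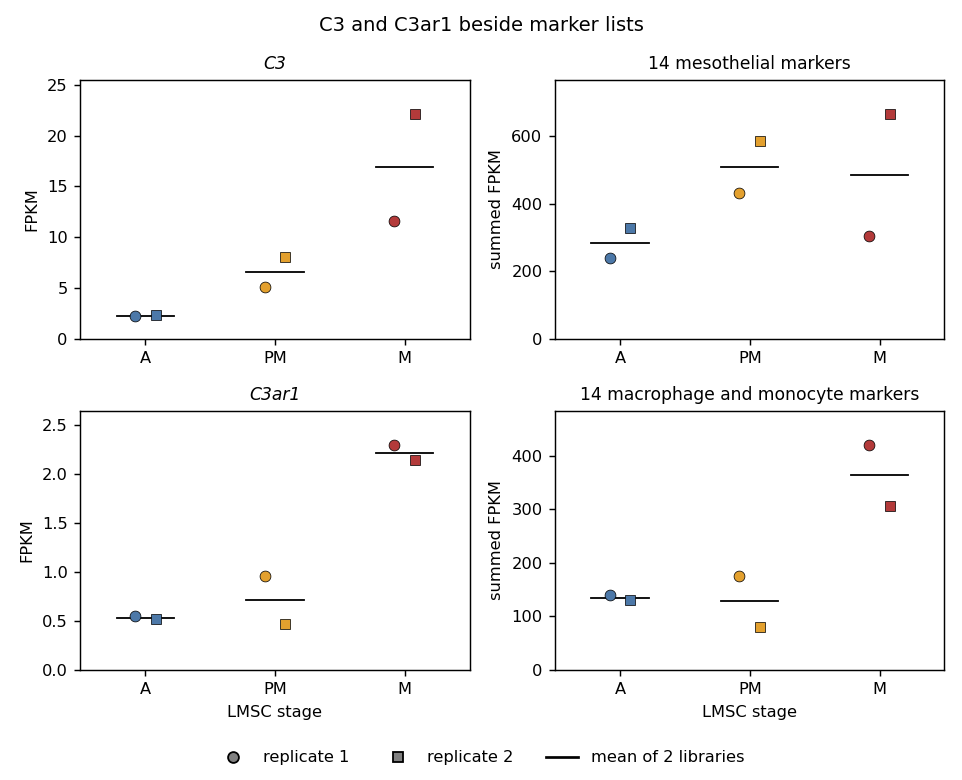
C3 and C3ar1 (FPKM, left) beside the summed FPKM of 14 mesothelial and 14 macrophage and monocyte markers (right) by LMSC stage (x axis); circles are replicate 1, squares replicate 2 and lines the mean. The macrophage sum has the same order of libraries within each stage as C3ar1, and the mesothelial sum is higher in replicate 2, as C3 is, but overlaps between PM- and M-LMSCs.

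Of the proteases that build the alternative convertase, factor B was measured at a low level. It is encoded by Cfb (ENSMUSG00000090231, chromosome 17, 34856374 to 34862518, minus strand), a gene often induced with C3 in inflamed tissue. Cfb was found at 0.710 and 0.500 FPKM at the adenoma, 0.367 and 0.184 FPKM at the pre-metastatic and 0.630 and 0.728 FPKM at the metastatic stage. The PM-LMSC libraries were the lowest, at 0.455 of the A-LMSC mean, and the M-LMSC libraries overlapped those of A-LMSCs, so the order of C3 was not seen in Cfb. These levels are below the filter and rest on few fragments, between about 8.24 and 41.8 at the annotated exon length, and were not tested. Cfb shares 2246 exonic bases with Gm20547, a read-through model on the same strand that also shares 1656 exonic bases with C2. Gm20547 was at 0.662 and 0.591, 0.583 and 0.899, and 1.12 and 1.59 FPKM in A-, PM- and M-LMSCs, and how fragments were divided among these genes is not given in the sources used here.

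Factor D, or adipsin, the serine protease that cleaves factor B and is abundant in adipocytes, is encoded by Cfd (ENSMUSG00000061780, chromosome 10, 79890853 to 79892655, plus strand). It was listed at 0 in all 6 libraries. A listed 0 is not evidence of absence in this table, since mt-Co2, a mitochondrial gene that every cell uses, was also at 0 in the 6 libraries. Among 10 adipocyte markers, summed at 16.1 to 22.9 FPKM, Adipoq was at 0.0846 FPKM or less. Properdin (Cfp), which stabilizes the alternative convertase and is made by myeloid cells, was detected at 1.32 and 1.77 FPKM at the adenoma, 1.73 and 0.772 FPKM at the pre-metastatic and 4.90 and 4.05 FPKM at the metastatic stage. Its difference between M- and A-LMSCs was 1.11 on the log2 scale (limma adjusted p = 0.117, and 0.0335 with the block).

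C2 (ENSMUSG00000024371, chromosome 17, 34862604 to 34898265, minus strand) is the classical counterpart of factor B. Both genes are read from the minus strand, and the last base of C2 lies 86 bases before the first base of Cfb. The C2 level was 3.88 and 3.61 FPKM at the adenoma, 3.90 and 6.09 FPKM at the pre-metastatic and 4.71 and 9.26 FPKM at the metastatic stage. All 4 later libraries were above the A-LMSC ones, but in PM-LMSC replicate 1 by only a small margin, and the PM- and M-LMSC libraries overlapped. The log2 difference between M- and A-LMSCs was 0.69 ± 0.30 (standard error; limma adjusted p = 0.352, and 0.109 with the block) and fell to 0.27 without M-LMSC replicate 2. A stretch of 161 exonic bases of C2 overlaps Zbtb12 on the other strand.

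C4b (ENSMUSG00000073418, chromosome 17, 34728380 to 34743882, minus strand) encodes C4, which like C3 carries an internal thioester and anchors the classical convertase. Its libraries read 1.93 and 1.90 FPKM at the adenoma, 1.52 and 2.73 FPKM at the pre-metastatic and 2.00 and 5.94 FPKM at the metastatic stage. M-LMSC replicate 2 stood far above the other 5 libraries, and replicate 1 was barely above the A-LMSC level. The log2 difference between M- and A-LMSCs was 0.65 ± 0.38 (standard error; limma adjusted p = 0.464, and 0.186 with the block), and without M-LMSC replicate 2 it was 0.04. Between PM- and A-LMSCs it was 0.07 (limma adjusted p = 0.987) and turned to -0.21 without PM-LMSC replicate 2. C4a matches C4b over 5378 bases with 96.0% identity and was at 0.0450 to 0.107 FPKM, and fragments of these copies could have been split between them.

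The 3 components C3, C2 and C4b shared a pattern between the libraries of a stage. In A-LMSCs replicate 2 stood at 1.05, 0.933 and 0.984 times replicate 1. In PM-LMSCs the ratios were 1.58, 1.56 and 1.80, and in M-LMSCs 1.91, 1.96 and 2.98. A ratio of at least 1.5 at both later stages was found in 0.905% of the tested genes, a threshold chosen after these values were seen. The other tested members did not reach it, with ratios at the later stages of 0.488 and 0.930 for C3ar1, 0.683 and 0.791 for Cd55, 1.01 and 1.11 for Cr1l, and 0.900 and 1.07 for Cd59a. Fam180a (1.74 and 1.95), Cfi (1.61 and 3.22) and the lectin pathway gene Colec11 (1.80 and 2.12) did reach it. Cfi encodes the protease that inactivates C3b. All 3 were picked out after their values were seen, so their ratios are a description. Fam180a was taken as the gene most like C3 over these same libraries. Colec11 passed the filter through the later stages. Cfi passed it only through M-LMSC replicate 2 (2.46 FPKM), the numerator of its ratio of 3.22. Clu, also near C3 in profile, did not reach the threshold at both stages (1.27 and 2.39). Among the 4 members on chromosome 17, Cfb did not share the pattern, with 0.501 in PM-LMSCs and 1.16 in M-LMSCs.

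**Figure D3:**
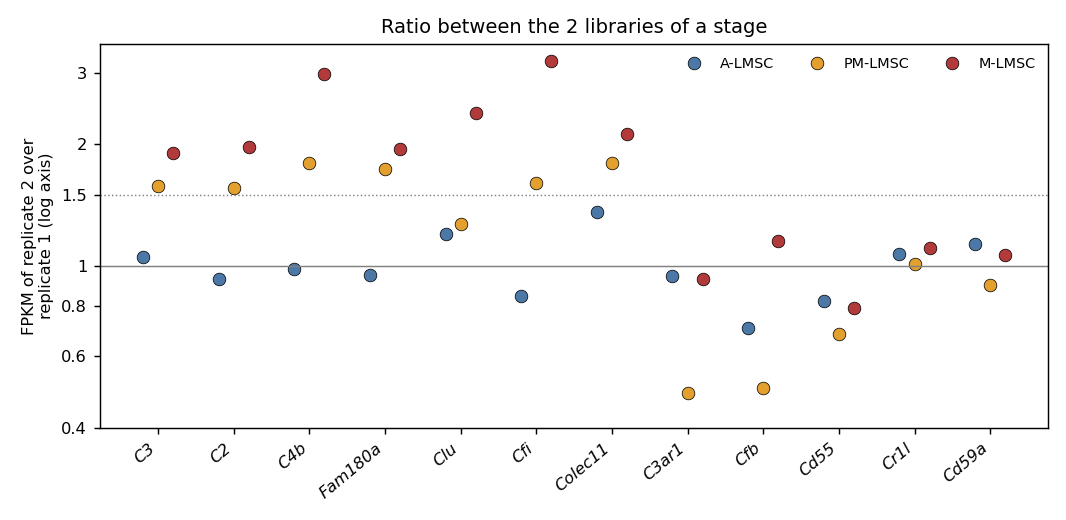
Ratio of FPKM in replicate 2 to replicate 1 (y axis, log scale) at each stage for the 8 detected members and 4 other genes (x axis); the solid line marks equal values and the dotted line 1.5. C3, C2, C4b, Fam180a, Cfi and Colec11 lie above 1.5 at both later stages, while C3ar1, Cfb, Cd55, Cr1l and Cd59a do not. Clu lies above it only in M-LMSCs.

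The surface regulators differed by less between the stages than C3. Cd55 (decay-accelerating factor; ENSMUSG00000026399, chromosome 1, 130439027 to 130462744, minus strand) speeds the decay of the convertases. Cd55 reached 1.07 and 0.881 FPKM at the adenoma, 1.88 and 1.28 FPKM at the pre-metastatic and 2.02 and 1.60 FPKM at the metastatic stage, with replicate 1 the higher library at every stage. All later libraries were above the A-LMSC ones, and the PM- and M-LMSC libraries overlapped. The means in PM- and M-LMSCs were 1.62 and 1.85 times the A-LMSC mean, with log2 differences of 0.38 (standard error 0.16, adjusted p = 0.754 from limma) and 0.50 (standard error 0.16, adjusted p = 0.229 from limma; 0.0543 with the block). With a pseudocount of 0.1 these differences were 0.63 and 0.82 (limma adjusted p = 0.737 and 0.227). Its exons share 102 bases with the antisense gene Gm16083 and 379 bases, 98.4% identical, with Cd55b, which did not exceed 0.0404 FPKM.

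Cr1l (Crry; ENSMUSG00000016481, chromosome 1, 195097382 to 195131586, minus strand) is the broadly expressed rodent regulator that limits deposition of C3b and C4b. It was nearly level, at 2.38 and 2.55 FPKM at the adenoma, 2.67 and 2.70 FPKM at the pre-metastatic and 2.78 and 3.09 FPKM at the metastatic stage. The stages did not overlap and were ordered A < PM < M, yet the mean in M-LMSCs was only 1.19 times that in A-LMSCs. The log2 difference between M- and A-LMSCs was 0.18 ± 0.11 (standard error; limma adjusted p = 0.479, and 0.318 with the block). The pseudogene Crry-ps, which shares 1320 bases with it at 96.6% identity, was at 0.397 to 1.75 FPKM and could have taken part of its fragments.

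Cd59a (ENSMUSG00000032679, chromosome 2, 104095801 to 104115354, plus strand), whose product blocks assembly of the membrane attack complex, was the member with the highest mean level, above that of 76.7% of the tested genes. Its libraries held 13.1 and 14.8 FPKM at the adenoma, 22.6 and 20.3 FPKM at the pre-metastatic and 19.7 and 21.1 FPKM at the metastatic stage. The later libraries were all above the A-LMSC ones and overlapped each other, so the higher level was already present at the pre-metastatic stage. Against A-LMSCs, PM-LMSCs differed by 0.59 on the log2 scale (limma adjusted p = 0.324, and 0.104 with the block), with a standard error of 0.12 in every contrast. M-LMSCs differed by 0.52 (limma adjusted p = 0.139, and 0.0589 with the block) from A-LMSCs and by -0.07 (limma adjusted p = 0.883) from PM-LMSCs. The related Cd59b was at 0.134 to 0.397 FPKM.

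**Figure D4:**
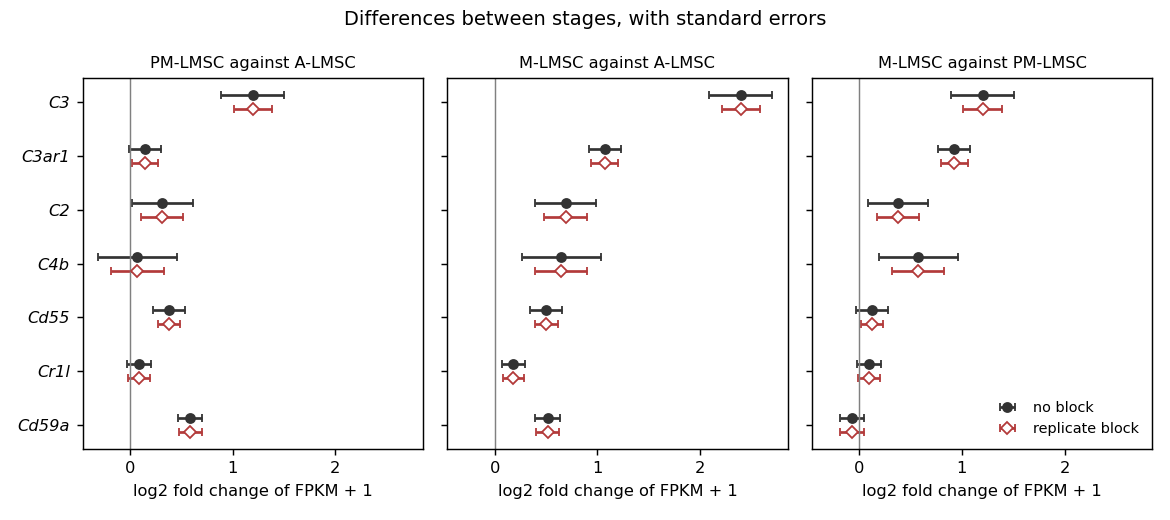
Log2 fold change of FPKM + 1 (x axis) with its standard error for the 7 members tested (y axis), in each comparison of stages; filled circles are the fit without and open diamonds the fit with the replicate block. C3 has the largest difference in M- against A-LMSCs (2.40), and Cr1l the smallest (0.18).

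Of 46 further complement genes, listed by pathway, 14 reached the filter. Both M-LMSC libraries were above both A-LMSC libraries in 19 of the 46 and below in 2 (Masp2 and C1qbp), beside 27.1% and 24.4% of all tested genes. For PM- against A-LMSCs the counts were 6 and 4, beside 19.6% and 19.7%. Of the 14 tested, 11 were above and 1 below in M-LMSCs, and 3 were above and 2 below in PM-LMSCs, beside the same shares. Between PM- and A-LMSCs 1 of the 14 was called by limma, C1s1, which cleaves C4 and C2, and between M- and A-LMSCs none was, although 9 of the 14 were higher and 0 lower at an unadjusted p under 0.05 (7.68% and 6.96% of all tested genes). With the block 6 were called higher in M-LMSCs (C1qb, C1qc, C1s1, Colec11, Cfp and Clu; 2.28% of all tested genes) and 0 lower. The median log2 difference of the 14 between M- and A-LMSCs was 0.78, beside 0.03 for all genes tested, and between PM- and A-LMSCs it was -0.061, beside 0.01. These counts and medians are descriptions, since Colec11 and Cfi were under 1 FPKM in both A-LMSC libraries. Colec11 passed the filter through later stages, and Cfi only through M-LMSC replicate 2 (2.46 FPKM). In M-LMSC replicate 1 Cfi was at 0.765 FPKM, barely above A-LMSC replicate 1 at 0.744 FPKM. Colec11 and Cfi are both among the 11 above in M-LMSCs. Colec11 is also among the 9 higher at an unadjusted p and the 6 called with the block.

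The further genes differed in their order of stages. The C1q chains, which form the recognition unit of the classical pathway and are made by macrophages, were highest in M-LMSCs, with C1qb at 1.54 and 4.41 FPKM at the adenoma, 2.55 and 1.16 FPKM at the pre-metastatic and 11.8 and 12.1 FPKM at the metastatic stage (log2 difference between M- and A-LMSCs 1.80, limma adjusted p = 0.119, and 0.0459 with the block). C1qc differed by 1.53 between these stages (limma adjusted p = 0.114, and 0.0366 with the block). C1s1 exceeded its A-LMSC level by 2.01 on the log2 scale in PM-LMSCs (limma adjusted p = 0.0105) and by 1.22 in M-LMSCs (limma adjusted p = 0.0713, and 0.0157 with the block); the difference between M- and PM-LMSCs was -0.79 (limma adjusted p = 0.192). Clu had 7.83 and 9.40 FPKM at the adenoma, 15.7 and 19.9 FPKM at the pre-metastatic and 16.1 and 38.5 FPKM at the metastatic stage, and differed by 1.44 between M- and A-LMSCs (limma adjusted p = 0.160, and 0.0250 with the block). Colec11 differed by 1.00 (limma adjusted p = 0.150, and 0.0232 with the block), but its A-LMSC values of 0.243 and 0.331 FPKM were low and it reached the filter through the later stages, so this is a description.

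Serping1, the C1 inhibitor, was by far the most abundant complement gene, at 302 and 307 FPKM at the adenoma, 248 and 301 FPKM at the pre-metastatic and 296 and 374 FPKM at the metastatic stage, with overlapping ranges between M- and A-LMSCs (0.13, limma adjusted p = 0.709). Masp1, a lectin pathway protease, and C1qbp, a mitochondrial protein that binds C1q, had the highest means of the lectin and classical list and of the receptor list; they differed by -0.44 (limma adjusted p = 0.455) and -0.21 (limma adjusted p = 0.421) between M- and A-LMSCs.

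**Figure D5:**
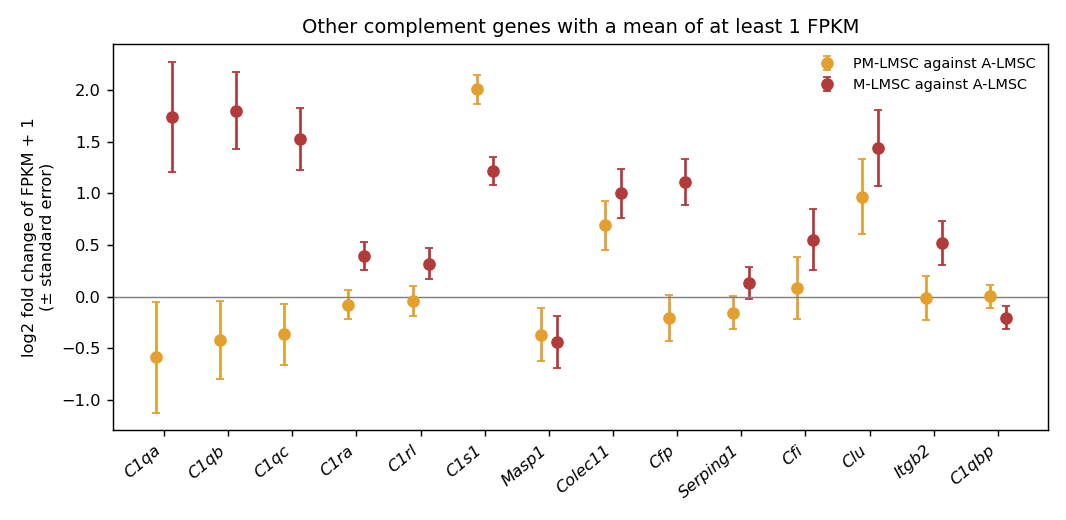
Log2 fold change of FPKM + 1 with its standard error (y axis) in PM- and M-LMSCs, each against the same A-LMSC libraries, for the 14 further complement genes tested (x axis). C1qa, C1qb, C1qc and Cfp lie above 0 only in M-LMSCs, while C1s1, Colec11 and Clu lie above 0 at both stages.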

How the data were processed

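Fragments were aligned by the authors to mouse build mm10 (TopHat2 2.0.9 is named in the submitters' processing notes); the counting tool and annotation are not given in the sources used here. The deposited values are FPKM per gene, not counts, in 1 column per library. All 6 columns were matched to samples through their labels, and 0 columns were left over. Of a repeated gene name (57 cases) an identifier in the annotation was used first. Positions, exon lengths and overlaps came from GENCODE M21 on GRCm38, which is mm10, copies from blastn 2.17.0 (at least 95% identity over 200 bases), and promoters from RefSeq (GRCm38.p6). Values of log2(FPKM + 1) were fitted with limma 3.58.1 in R 4.3.3 (lmFit, then eBayes with a trend), with 1 mean per stage over the 6 libraries. The fit was tested on simulated data. The labels repeat replicate numbers 1 and 2 at each stage. Deviations from the stage mean correlated between same-numbered libraries at 0.238 (A and PM), 0.307 (A and M) and 0.491 (PM and M). The number was therefore taken to pair the libraries and was fitted as a block beside the main design. The labels do not say what same-numbered libraries share, and whether the pairing is real was not tested, so values with the block are an alternative only. Alternatives were another pseudocount (0.1), no filter, quantile normalization, centering, only the stages compared, the block, and each library left out. Genes were named by rule: the members, further complement genes called in either fit or with the highest mean of their list, the 5 tested genes most like C3, and defining cell type markers; others were chosen after their values were seen. A result on 1 further complement gene is not reported here. Members and lists were chosen with earlier results of these data known. Near 1 FPKM, 2 libraries per stage and their depth limit the precision. Python 3.11.15 was used.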

Additional observations from a re-analysis of the deposited data

How the results depend on the processing

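Under the 12 alternatives, 241 of 252 comparisons of the 7 tested members kept their direction and their side of the threshold; 5 came to pass it and 6 changed sign. The 5 are C3 and C3ar1 in the fits named in the report. Part of this agreement was fixed in advance. With no filter, only the stages compared, the block, or without a library of the stage not compared, the log2 differences stay the same. In those fits the direction could not change. No member was called in the main fit, so none could lose a call. The sign changes came from leaving out 1 library, in differences that no fit called, and their ranges over the 6 left-out libraries were, for PM against A, -0.061 (without PM-LMSC replicate 1) to 0.35 for C3ar1 and -0.21 (without PM-LMSC replicate 2) to 0.36 for C4b. For M against PM they were -0.045 to 0.80 for C2 and -0.031 to 1.18 for C4b (both lowest without M-LMSC replicate 2), -0.041 (without PM-LMSC replicate 2) to 0.29 for Cd55, and -0.14 to 0.0029 (without PM-LMSC replicate 1) for Cd59a. With a pseudocount of 0.1 the log2 differences of C3ar1 went to 0.30 (PM against A), 1.88 (M against A) and 1.58 (M against PM) and those of Cd55 to 0.63, 0.82 and 0.20, each over 1.5 times the value reported. The numbers of genes called by limma (4 for PM against A, 7 for M against A, 3 for M against PM) became 30, 403 and 43 with the replicate block, which changed no other call of a member. With no filter they were 1 and 3 for the first and second comparisons, and with only the stages compared 21 and 1. With each library left out in turn they ranged from 1 to 28, from 1 to 90 and from 2 to 25. The cause of these shifts was not tested, apart from the smaller number of libraries where they were left out. At 2 libraries per stage, differences near the spread of the libraries, as in C4b and C2, could not be called.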
